A study of Mus musculus with 7 samples.

Results

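The wild-type (WT) luminal cells of the mouse prostate were described here at baseline, across all genes and with no contrast between genotypes. The members were the 3 arrays whose titles name WT luminal cells, replicates A, B and C, of 7 arrays in the series. The other 4 arrays held T-ETV1 luminal cells, from mice in which the endogenous Tmprss2 promoter drives a human ETV1 cDNA, and served only in the choice of the probe set that stands for a gene. Cells of both genotypes had been sorted by flow cytometry from dissociated prostates as negative for the lineage markers CD31 (endothelium), CD45 (leukocytes) and Ter119 (erythroid cells), negative for Sca1 and positive for CD49f. A GFP gate was added for the T-ETV1 cells only. The WT mice are labelled only as wild type. The sources used here do not give strain, age, prostate lobe or any pooling of animals. The series text calls the replicates biological, but does not tie an array to an animal. Total RNA was amplified and hybridised to Affymetrix 430 2.0 arrays.

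Luminal cells line the lumen of the prostate ducts and secrete the proteins, citrate and zinc of prostatic fluid. Androgen drives this programme through its receptor, together with the homeobox factor Hoxb13 and the pioneer factor Foxa1. Beneath the luminal layer lie basal cells, and around the duct lie smooth muscle, fibroblasts, vessels and leukocytes.

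The values are linear intensities of probe sets, which are groups of short probes against 1 transcript. Probe sets differ in how well they bind, so a rank of intensity orders signals and not transcript numbers. 18193 genes were measured through 1 probe set each. Where 3 intensities stand together they are WT A, WT B and WT C, in that order. A gene was called above background on an array when it exceeded the 95th percentile of 86 probe sets for olfactory, vomeronasal and taste receptors, which came to 23.4, 20.4 and 22.6. The median intensity over genes was 183, 221 and 294. Of all genes, 11793 were above background on all 3 arrays (64.8%), 2369 on 1 or 2 arrays (13%) and 4031 on none (22.2%). The percentage of 64.8 is the background against which the count of every gene list below is read. No test was made, since there is 1 group of 3 arrays and nothing to compare it with.

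WT C stood apart from the other arrays. Over all genes the log2 values correlated at r = 0.978 between A and B, 0.960 between B and C and 0.941 between A and C, as a description across genes that share probes and platform. In marker lists described below, WT C was highest in 20 of 20 myeloid, 16 of 17 lymphocyte and 9 of 10 mast cell genes. It was also highest in 20 of 21 fibroblast and 18 of 18 endothelial genes. Over all genes C was highest in 46.7%. That share was 31.8% after quantile normalization and 22.5% after median scaling of the arrays. In bulk RNA, fewer cells of a type and less RNA per cell cannot be told apart. Leaving out WT C gave 12019 genes above background on the remaining arrays (66.1%), and leaving out A or B gave 12500 and 11932. Results that rest on a single array are given with that array named.

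All 3 luminal markers were among the strongest signals on every array. Pbsn, which encodes probasin, an androgen-regulated secreted lipocalin of the rodent prostate, had intensities of 12142, 12111 and 12447, a mean of 12233 ± 186 (SD, n = 3) and rank 9. Krt18, a keratin of simple epithelia, had 10548, 10477 and 9923 and rank 39. Its partner Krt8 had 5612, 7234 and 6046 and rank 239. The arrays lay close together for Pbsn and Krt18, with an SD of 0.02 and 0.05 on the log2 scale. Krt8 differed more, with an SD of 0.19, and was highest on B. No array was set apart in all 3 genes. Of the wider list of prostate luminal identity genes, 15 of 16 were above background on all 3 arrays (93.8%) and 11 were among the 1000 strongest genes. Krt19 had 9781, 10909 and 9537, Cd24a, a small surface glycoprotein, 9721, 9696 and 9554, and the homeobox factor Hoxb13 6589, 6915 and 6448. Epcam, an epithelial adhesion molecule, had 6685, 7159 and 5934. Hoxb13 varied little, while Epcam was lowest on WT C. Dpp4, a surface peptidase, had 5986, 5732 and 4772 and was also lowest on WT C. Folh1, which encodes prostate-specific membrane antigen in man, was the exception, at 13, 5 and 8.49, under background on each array.

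The measured genes of the sort gate, taken by themselves, matched the gate on A and in part on the others. Itga6, which encodes CD49f, was above background throughout at 2591, 2675 and 3089. Ptprc, which encodes CD45, was at 5.78, 4.63 and 467, under background on A and B and above it on C. Pecam1, which encodes CD31, was at 13.6, 42.9 and 205, under background on A alone. Most other endothelial markers, described below, were above background on A, such as Emcn at 624 and Cdh5 at 548. Flt1 at 12.35 and Sox17 at 1.6 were under it on A. Ly6a and the Ter119 antigen were not analysed here. The Y-linked gene Eif2s3y was above background at 2589, 2784 and 2346, while Xist stayed under background at 11.7, 14.7 and 11.5.

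**Figure D1:**
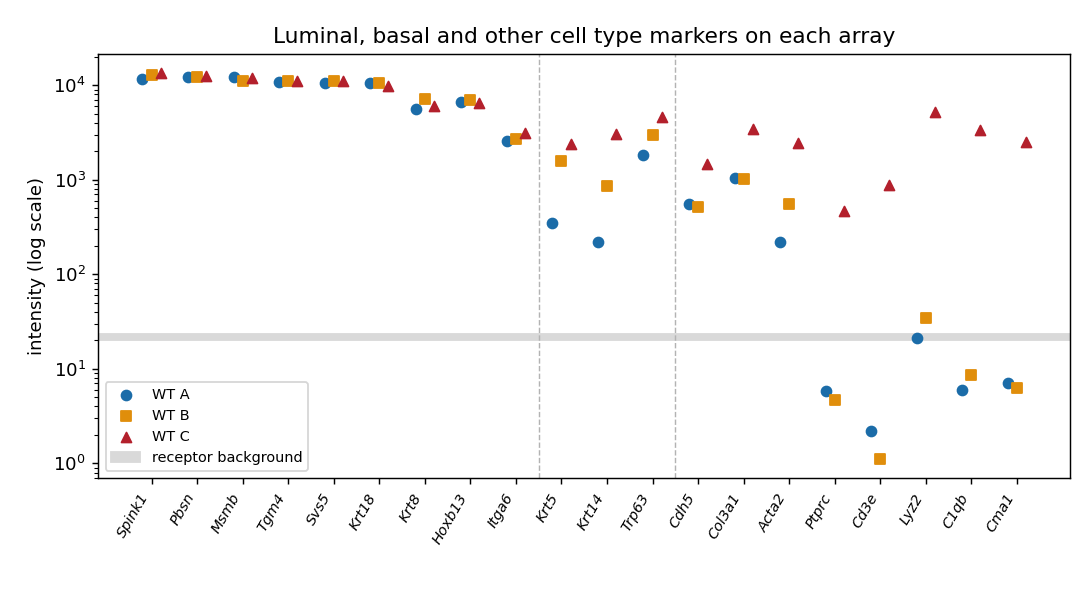
Intensity on a log axis of luminal and gate genes (left of the first dashed line), basal genes (middle) and markers of other cell types (right) on each WT array, with the range of the receptor background in grey. Luminal genes overlap on the 3 arrays, while Ptprc, Cd3e, C1qb and Cma1 are above background on WT C only.

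The 30 genes with the highest mean intensity were 19 ribosomal proteins, 6 secreted proteins of the prostate and seminal vesicle lists, and 5 others. The others were Mt2, Naca, Tmsb4x, B2m and Fcgbp. Mt2, a zinc-binding metallothionein, ranked second with 13338 ± 294 (SD, n = 3). Fcgbp, a mucus protein that binds immunoglobulin G, ranked 14 with 11936 ± 283 (SD, n = 3). Naca binds nascent polypeptides at the ribosome and had 12358 ± 157 (SD, n = 3). Tmsb4x, which binds actin monomers, had 12065 ± 285 (SD, n = 3), and B2m, the light chain of class I histocompatibility molecules, had 11999 ± 235 (SD, n = 3). These 30 means ran only from 10728 to 14128, and the largest coefficient of variation was 6.6%. For 28 of the 30, the range over the arrays overlapped that of the gene next in rank, the exceptions being Rpl35 and Mt2, so most of this order does not exceed the spread. The highest intensities were 14277, 14152 and 14203 on the 3 arrays. Of the 30 genes, 27 to 28 were in each array's own top 30. Together they held 2.27, 2.22 and 2.06% of the summed intensity, lowest on WT C.

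**Figure D2:**
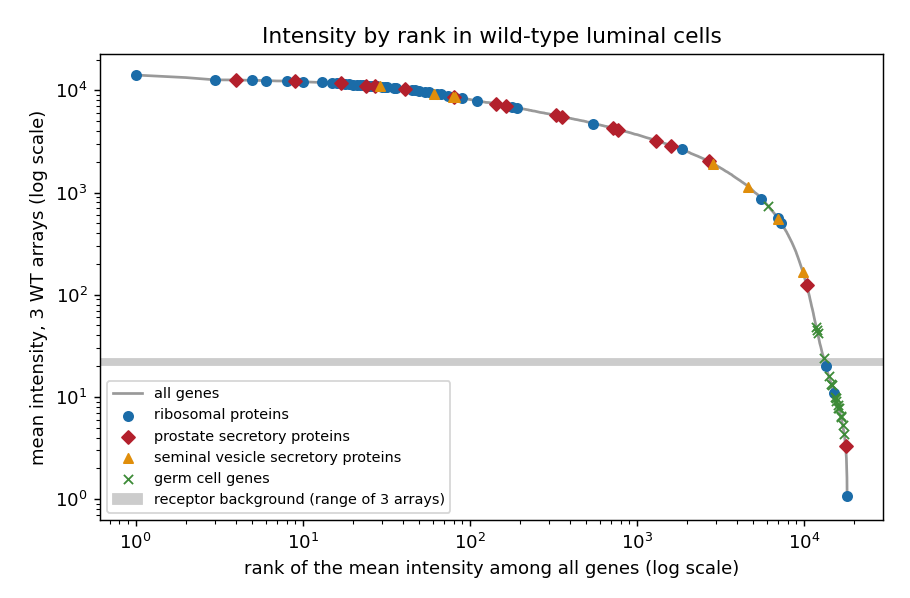
Mean intensity over the WT arrays against rank, both on log axes, for all 18193 genes (line) and for 4 gene lists (symbols), with the receptor background in grey. Ribosomal and secretory genes crowd the flat upper end near the highest intensities, whereas most germ cell genes lie in or under the grey band.

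Secreted proteins of prostatic fluid were among the strongest signals. Of 18 measured, 16 were above background on all 3 arrays (88.9%), and 13 were among the 1000 strongest genes. Spink1, a secreted inhibitor of trypsin, led them with 11768, 12746 and 13429.6 and a mean of 12648 ± 835 (SD, n = 3). It was lowest on A and highest on C. Msmb, a microseminoprotein of prostatic fluid, had 12143, 11119 and 11932, lowest on B. Tgm4, the transglutaminase that cross-links seminal proteins, had 10931, 11206 and 11017, and its arrays differed by less than those of Msmb. The clone-named gene 9530002B09Rik had 10957, 11306 and 11155. Cst3, the protease inhibitor cystatin C, had 10440.2, 9988 and 10194 and rank 41. Below these, chosen after their values were seen, lay Azgp1, a zinc-binding glycoprotein, at 8662, 8646 and 8571, and the ribonuclease Rnase1 at 7760.0, 6809.8 and 7641. Clu, the chaperone clusterin, also picked for its values, differed more between arrays, at 5215, 6944 and 9119, lowest on A and highest on C. Pigr, which carries immunoglobulin A across epithelia and was likewise picked, was lower on A than on the others at 2318, 4972 and 5061. Cuzd1 was under background on A alone at 4.8, 126 and 239. Pip, prolactin-induced protein, was under background throughout at 5.25, 2.03 and 2.57.

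Promoters are shown for 3 of the strongest secretory genes whose start regions were listed by RefSeq for GRCm38.p6. Spink1 and Msmb, also among the strongest, had no listed start region. Each line gives the 250 bases before the annotated start, 5′ to 3′ on the gene's strand. Capitals mark the letters TATAAA, as in a TATA box, by a match of letters only. They also mark AGAACA, an arm of androgen and glucocorticoid response elements, and its reverse complement. Pbsn lies at chrX:77853501-77853750 on the minus strand, Tgm4 at chr9:123034491-123034740 on the plus strand and Svs5 at chr2:164332515-164332764 on the plus strand.
Pbsn: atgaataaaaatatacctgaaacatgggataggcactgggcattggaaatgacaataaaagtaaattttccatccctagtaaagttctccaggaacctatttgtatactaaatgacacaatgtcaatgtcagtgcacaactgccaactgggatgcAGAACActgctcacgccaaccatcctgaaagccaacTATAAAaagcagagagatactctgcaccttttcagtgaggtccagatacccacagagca
Tgm4: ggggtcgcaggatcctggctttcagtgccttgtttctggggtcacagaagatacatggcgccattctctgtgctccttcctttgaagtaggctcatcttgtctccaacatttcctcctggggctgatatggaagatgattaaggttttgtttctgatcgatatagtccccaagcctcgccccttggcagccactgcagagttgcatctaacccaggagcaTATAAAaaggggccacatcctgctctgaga
Svs5: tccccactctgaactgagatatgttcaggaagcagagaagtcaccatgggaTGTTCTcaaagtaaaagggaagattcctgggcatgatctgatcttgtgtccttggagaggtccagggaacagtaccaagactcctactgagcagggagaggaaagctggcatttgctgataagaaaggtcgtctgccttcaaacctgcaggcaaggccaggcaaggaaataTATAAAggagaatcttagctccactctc

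The TATA letters began 59 bases upstream of the start in Pbsn, 30 in Tgm4 and 28 in Svs5. AGAACA began 95 bases upstream in Pbsn, and its reverse complement TGTTCT 199 bases upstream in Svs5. Tgm4 held neither in this window.

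Motifs were counted on both strands of the same 250 bases in all genes with a listed promoter. TATAAA occurred in 8 of the 19 secretory promoters (42.1%), against 1513 of 14452 over all genes (10.5%). Among the 8 were the seminal vesicle genes Svs2, Svs3a, Svs4, Svs5 and Svs6, several of them close relatives. Pip, under background on every array, was another. TATAAA was found in 7.69% of promoters of ribosomal proteins and in 5.13% of those of the respiratory chain. In the 100 strongest genes its share was 13.1%. AGAACA occurred in 9 of the 19 (47.4%), against 14.7% over all genes and 16.7% in the 100 strongest. GGGCGG, the core of the binding site of Sp1, was found in 4 of the 19 (21.1%), against 53.4% over all genes and 48.7% in ribosomal promoters. None of these motifs overlaps another in the printed sequences. The counts describe letters in a window, and the secretory genes were chosen for their product.

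Proteins of seminal vesicle secretion were also high, and this list had a wide spread. Of 8 measured, 7 were above background on all 3 arrays (87.5%). Svs5 had 10561, 11085 and 11161, a mean of 10936 ± 327 (SD, n = 3). Pate4 had 8522, 9427 and 9938, and Svs2, a clotting protein of semen, had 7508, 8874 and 9315. These 3 were lowest on A. Svs4 went the other way, at 10479, 9900.1 and 5657, lowest on C. Spinkl was at 3133, 2519 and 74.3, Svs6 at 1278, 1924 and 230.2 and Svs3a at 374, 1252 and 22.9. Each of these 3 was over 1 log2 unit lower on C than on both other arrays, while Svs5 and Svs2 were highest on C. Over all genes only 0.473% lay that far below both others on C. Serpina1f was at 2.66, 173 and 327, under background on A. The median SD of the list was 1.03 on the log2 scale, against 0.23 over all genes. Several of these genes are close relatives in 1 cluster, and the intensities of near-identical copies may share signal.

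Genes expressed in particular zones of the gland differed between arrays as well. Of 12 markers of proximal luminal and urethral epithelium, 9 were above background throughout (75%). Nupr1, a stress-induced chromatin protein, had 6505, 11207 and 9231, lowest on A. Psca, a surface antigen of proximal luminal cells, rose to its highest on C at 1619, 2881 and 4097. Krt4 had 259, 638 and 739 and Ly6d 66.4, 183 and 1038, both lowest on A and both chosen after their values were seen. Upk1b, a urothelial plaque protein, varied little at 3672, 3469.9 and 3370.2. Krt13 was under background at 4.67, 8.39 and 8.33. The median of the list on the log2 scale was 9.03, 10.32 and 10.30, so A lay below the others.

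The machinery that moves proteins into and through the secretory pathway was measured at high intensity and with little spread. All 29 genes of translocation and glycosylation at the endoplasmic reticulum (ER) were above background on every array, and 24 were among the 1000 strongest. Srp9, of the signal recognition particle, had 9422, 8909 and 8414, and Sec61b, a subunit of the translocation channel, 9149, 8599 and 8655. Ssr4, of the translocon-associated complex, had 8754, 8105 and 8480.3, and Ddost, of the oligosaccharyltransferase, 8063, 7346 and 7823. Of ER chaperones and genes of the unfolded protein response, 29 of 30 were above background (96.7%). Agr2, a disulfide isomerase of secretory epithelia, had 10424, 10216 and 10405. Calr, a calcium-binding chaperone, had 9350.4, 8888 and 9481, and Hspa5, the main ER chaperone of its family, 8813, 8596 and 7998. Hspa5 was lowest on C and Agr2 was even across arrays. The transcription factor Xbp1, a regulator of secretory capacity, had 3402, 3808 and 3521, and Bhlha15, a factor of professional secretory cells, 3425, 3127 and 3519; both were chosen after their values were seen. Ern2, a stress sensor of mucous cells, was the exception at 20.4, 14.8 and 13.7. All 32 genes of vesicle traffic between ER and Golgi were above background, led by the small GTPase Arf1 at 8446, 8564 and 8598 and the cargo receptor Tmed3 at 9122, 8184 and 8234. The median SD of the 3 lists was 0.06, 0.09 and 0.07 on the log2 scale. Over the 3639 genes of highest mean log2 level it was 0.105, so little spread was not particular to these lists. A had the highest value in 19 of 29, 21 of 30 and 14 of 32 genes of the lists, against 27.5% over all genes. After median scaling of the arrays A was highest in 28 of 29 translocation genes and 29 of 30 chaperone genes, with 55.5% over all genes.

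Ribosomal proteins had the highest intensities of all lists, with a median of 10528 and a median SD of 0.03 on the log2 scale. Of 44 measured, 33 were among the 100 strongest genes and 41 were above background throughout (93.2%). Rpl35 had 14222, 14152 and 14011, Rpl4 12578, 12901 and 12509 and Rpsa 12259, 12676 and 12629.5. Rpl19 and Rps28 followed, with means of 12481 ± 244 (SD, n = 3) and 12348 ± 556 (SD, n = 3). The 3 that were not above background throughout were Rpl37 at 25.7, 14.2 and 20.1, Rpl39 at 3.9, 21.5 and 7.37 and Rps16 at 1, 1 and 1.24. Since every cell needs these proteins, a low intensity does not show that a gene was silent. The choice of probe set mattered here. Of the 19 ribosomal genes in the top 30, 10 had several probe sets, and for 6 the weakest of these averaged under 1000. For Rps3 the weakest averaged 5.66, against a mean of 10997 for the one used. Genes of other lists showed this too. The weakest probe set averaged 1.77 against 3148 for Trp63 and 2.19 against 5663 for Ehf, whereas for Krt8 it was 6202 against 6297.5.

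Mitochondrial and central metabolism was measured in almost full number. All 50 genes of the respiratory chain and ATP synthase were above background on every array, with a median intensity of 5038 and a median SD of 0.05 on the log2 scale. Cox7a2, of cytochrome oxidase, had 9179, 9247 and 9463, and Atp5h, of ATP synthase, 8372, 8419.7 and 8318. Cox7c was the weakest, at 535, 273 and 232, chosen after its values were seen. In the citrate cycle and citrate export 25 of 26 genes were above background (96.2%). Mdh1 had 7968, 7449 and 7397 and Mdh2, the mitochondrial malate dehydrogenase, 6069, 5875 and 6132. Fumarase Fh1 had 5898, 5155 and 4694, and Acly, which splits citrate in the cytosol, 5284, 4794 and 5318. Cs, citrate synthase, had 4870.4, 5289.6 and 5199. Prostate epithelium is known for accumulating citrate, a step attributed to low activity of mitochondrial aconitase. Slc25a1, the mitochondrial citrate carrier, had 714, 763 and 755, and the plasma membrane transporter Ank 1965, 4483 and 3320.2, lowest on A; the pair was picked for its values. The citrate importer Slc13a5 was under background at 5.95, 14.6 and 8.72.

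Zinc, which prostate epithelium stores and secretes, is handled by metallothioneins and by 2 families of transporters. Of 26 such genes 22 were above background throughout (84.6%). Mt2 had 13326, 13638 and 13050.0 and Mt1 10106, 10236 and 9291. Slc39a8, an importer, had 4800.0, 4796 and 3598, lowest on C. Slc39a7, which releases zinc from the ER and Golgi, had 4234, 4008 and 4289, and Slc30a5, which loads it into secretory vesicles, 2944, 3163 and 3331. Mt3 was above background on B alone at 12.4, 1428 and 15.2. Slc39a5 was under background at 16.7, 10.4 and 11.2. Slc39a2 and Mt4 were above it on some arrays, at 9.05, 39.8 and 43.1 and 14.9, 21.1 and 8.2.

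Polyamines reach high concentrations in prostatic fluid, and all 15 genes of their synthesis and turnover were above background. Oaz1 and Oaz2, antizymes that lead ornithine decarboxylase to breakdown, had 7306, 6769.9 and 7334 and 4851, 5069 and 5140.0. Odc1, ornithine decarboxylase itself, had 3329, 3679 and 3996. Sat1, which acetylates spermine and spermidine for export, had 3771, 4598 and 5575, lowest on A and highest on C. Srm, spermidine synthase, was even across arrays at 3313, 3177 and 3153.

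In glycolysis and glucose uptake 19 of 20 genes were above background (95%). Ldha had 7321, 7444 and 7210.4, Aldoa 7232, 7305 and 7321 and Pgk1 6659, 6567 and 6451, each nearly equal on the 3 arrays. Slc16a3, a lactate exporter, was the exception at 12.8, 13.4 and 109, above background on C alone. Glucose transporters and hexokinase differed more. Slc2a12 had 719.8, 1894 and 2385 and Hk2 869, 1810.0 and 2308, both lowest on A, and both chosen after their values were seen. In this list 4 of 20 genes lay over 1 log2 unit below both others on A, against 4.5% over all genes.

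Lipid metabolism was represented along each of its branches. In fatty acid synthesis and elongation 19 of 22 genes were above background (86.4%). The desaturases Scd1 and Scd2 had 5516, 5109.8 and 6057 and 5060.5, 5178 and 5673, and the elongase Elovl5 4903, 4879.7 and 4935. Fads1 and Fads2, desaturases of polyunsaturated fatty acids chosen after their values were seen, were lowest on A and highest on C, at 134, 462 and 1185 and 201, 658 and 1349. Elovl2 and Elovl4 were above background on some arrays, at 40.7, 33.8 and 5.15 and 1.78, 11.8 and 23.5, and Elovl3 on none, at 12.3, 5.79 and 8.44. All 21 genes of fatty acid oxidation were above background, led by the electron carrier Etfb at 6670.0, 6351 and 5764 and the dehydrogenase Hadh at 5865, 6045 and 6281. All 21 genes of cholesterol synthesis and uptake were as well. Hmgcs1, early in the pathway, had 4087, 4993 and 4406, and Insig1, which holds back the sterol-sensing factors, 3414, 4178 and 4128. Cholesterol genes were highest on B in 14 of 21, against 25.7% over all genes. That count was 16 after quantile normalization, against 27.9%, and 10 after median scaling, against 22.1%.

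Enzymes that make or inactivate steroid hormones were fewer. Of 27 measured, 14 were above background throughout (51.9%), 4 on some arrays and 9 on none, and no gene was among the 1000 strongest. The strongest were hydroxysteroid dehydrogenases with wider roles, Hsd17b10 at 3041, 3493 and 4124 and Hsd17b11 at 3425, 2527 and 2247. Cyp7b1, which hydroxylates oxysterols and some androgens, had 912, 793 and 599, chosen after its values were seen. Sult1e1, the oestrogen sulphotransferase, differed widely at 355, 96.1 and 2034, highest on C. Hsd3b1 and Hsd17b3, enzymes of testosterone synthesis, were under background at 4.53, 1.93 and 4.91 and 7.83, 7.09 and 7.62. Cyp17a1, another enzyme of that synthesis, was above background on all arrays at 73.7, 588 and 24.9, highest on B. Hsd11b1, which activates glucocorticoids, was above background on C alone at 10.9, 7.68 and 539.

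All 31 genes of glutathione metabolism and peroxide removal were above background. Superoxide dismutase Sod1 had 9296, 9422 and 9316 and thioredoxin Txn1 9199.7, 9175 and 9105, both even across arrays. Gpx3, a secreted glutathione peroxidase, had 7999, 8265 and 7321, and the transferases Gstm2 and Gstp1 7085, 6913 and 6239 and 6084, 6554 and 6681. Hmox1, haem oxygenase, and Nqo1, a quinone reductase, were low on A, at 76.7, 285 and 895 and 54.4, 224 and 321, and were chosen after their values were seen.

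**Figure D3:**
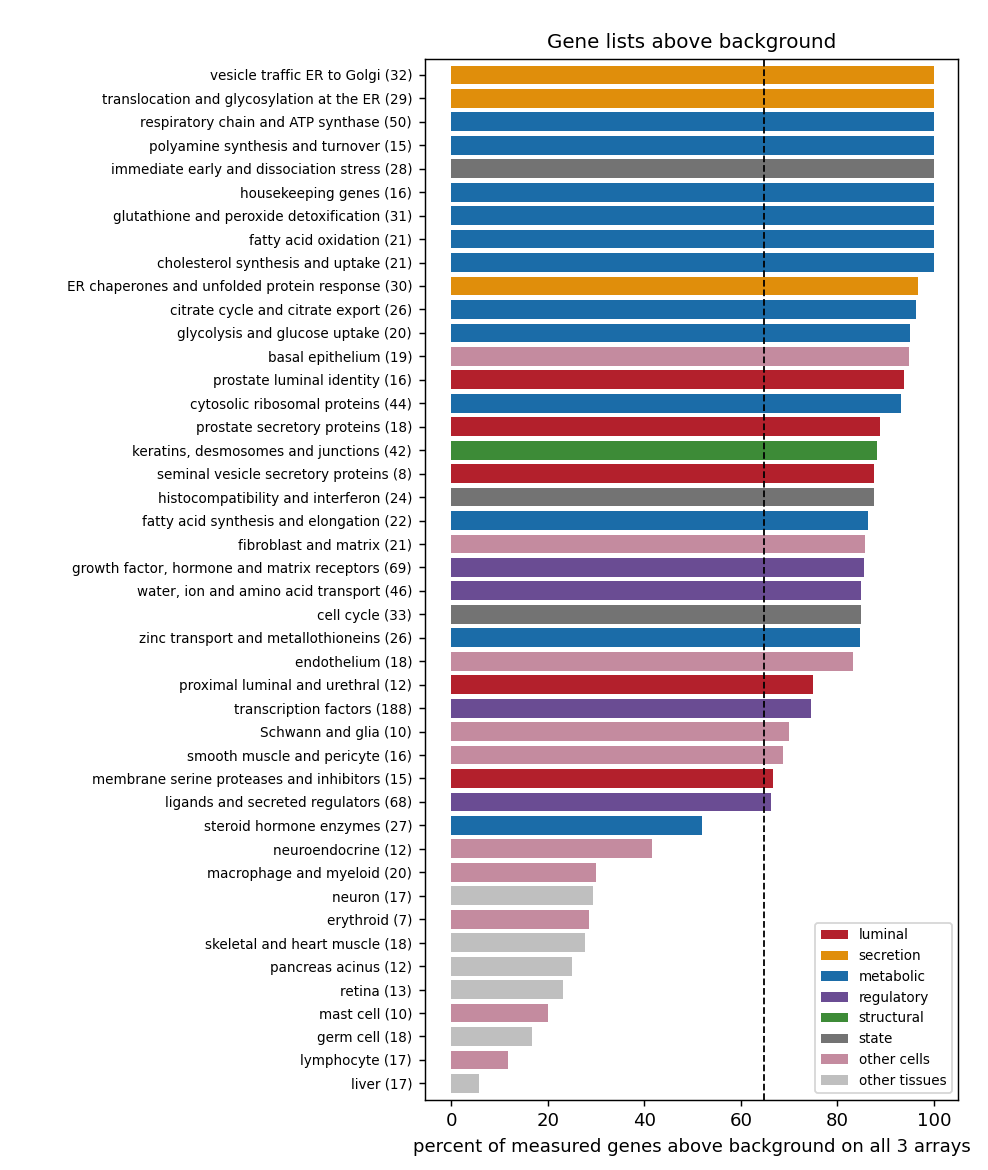
Percent of the measured genes of each list (number in brackets) above the receptor background on all 3 WT arrays, coloured by kind of list; the dashed line marks 64.8% for all genes. Secretory pathway and metabolic lists reach 84.6 to 100%, except steroid hormone enzymes at 51.9%, while lymphocyte and liver lists are at 11.8 and 5.88%.

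Among 188 transcription factors 140 were above background throughout (74.5%), 20 on some arrays and 28 on none. The immediate early factor Egr1 had the highest mean of the list, with 6817, 7334 and 10044. Jund and Fos, of the AP-1 family, had 6322, 6653 and 6858 and 5759, 6381 and 7243. Klf6 had 5008, 5849.8 and 7282 and Atf3, a stress factor, 3455, 5939 and 6782. All 5 were lowest on A and highest on C. Hoxb13 had a mean of 6651 ± 239 (SD, n = 3), Foxa1 5053 ± 88.8 (SD, n = 3), Gata2 5730.0 ± 474 (SD, n = 3) and the T-box factor Tbx3 4809 ± 306 (SD, n = 3). Gata2, which opens chromatin for the androgen receptor in prostate cells, was lowest on C, at 6010.4, 5997 and 5183. The ETS factors Ets2 and Ehf, the latter restricted to epithelia, had 6403, 7121 and 7713 and 5691, 5789 and 5509. Stat5a, which carries the signal of prolactin and growth hormone, was even at 5297, 5276 and 5224. Atf4, a factor of the integrated stress response, had 6331, 6684 and 6459, and Nfe2l1, which induces proteasome genes, 4652, 4877 and 5369. Zfp36l1, which speeds the decay of messenger RNA, had 4079.8, 4088 and 5572, highest on C. Among the 28 factors under background on every array were regulators of other tissues, chosen after their values were seen. They included the liver factor Hnf4a at 18.6, 18.6 and 10.8, the muscle factor Myod1 at 15.6, 11.1 and 20.9, the lung and thyroid factor Nkx2-1 at 5.38, 6.79 and 7.67 and the intestinal factor Cdx2 at 5.16, 4.06 and 6.1. C had the highest value in 120 of 188 factors, against 46.7% over all genes. With quantile normalization this was 98 of 188 against 31.8%, and with median scaling 63 of 188 against 22.5%.

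Of 69 receptors for growth factors, hormones and matrix, 59 were above background (85.5%). Tgfbr3, a co-receptor for transforming growth factor beta, had the highest mean of the list, with 3279.9, 3690.2 and 4438. The bone morphogenetic protein receptors Bmpr1b and Bmpr2 had 3703, 3271 and 3946 and 3384, 3219 and 3992. Ghr, the growth hormone receptor, had 2706, 3143 and 4446, highest on C. Igf2r, which clears insulin-like growth factor 2, was even at 3409, 3272 and 3430.4, as was the collagen receptor Ddr1 at 2974, 2844 and 3041. Fgfr2, the receptor through which stromal fibroblast growth factors act on epithelium, was lowest on A at 1456, 2982 and 3691. C was highest in 58 of the 69, against 46.7% over all genes. This was 52 after quantile normalization, against 31.8%, and 41 after median scaling, against 22.5%. C lay over 1 log2 unit above both others in 13 receptors, with 7.43% over all genes.

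Ligands and secreted regulators reached a share close to that of all genes, 45 of 68 (66.2%). With the fixed limit of 100 this was 29 of 68, where 9694 of all 18193 genes passed. Egf, epidermal growth factor, was the strongest at 5860.2, 5855 and 5298 and varied little. Pdgfa, a platelet-derived growth factor, had 2834, 3850.2 and 4729, and Fgf1 3509, 3761 and 4105. Igfbp5, which binds insulin-like growth factors, had 1308, 3235 and 3906, and the vasoactive peptide Adm 1939, 2268 and 3522. Both were lowest on A and highest on C. Pdgfc had 1714, 2306 and 3284, the interleukin Il18 an even 1811, 1890.5 and 1835, and the semaphorin Sema3c 1927, 861 and 2135, lowest on B. Of the chemokines, 3 that were chosen after their values were seen were highest on C. Cxcl1 had 66, 572 and 2558, Cxcl2 84, 301 and 2973 and Ccl2 20.1, 54.7 and 2216. Most other chemokines of the list were highest on C too, such as Cxcl12 at 448, 713 and 2281 and Ccl5 at 6.08, 18.6 and 587. Only Cxcl17 and Ccl28 were not. Cxcl17 had 349, 729 and 705, and Ccl28 14, 17.9 and 9.65, under background on each array. C lay over 1 log2 unit above both others in 25 of 68 ligands, against 7.43% over all genes, and in 19 after either rescaling. Leukocyte and fibroblast markers moved the same way on this array, and their part in the result was not tested.

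Transporters of water, ions and amino acids were above background in 39 of 46 (84.8%). Atp1b1, the beta subunit of the sodium pump, had 7593, 7689.9 and 7902, and Slc12a2, the chloride importer of secretory epithelia, 7067, 7705 and 8029.5. The potassium channel Kcnk1 had 6266, 6199 and 5928, and Atp2a2, the calcium pump of the ER, 5915, 5938 and 5801. Each of these differed little between arrays. Car2, carbonic anhydrase, had 5259.7, 5797 and 4911, Clic1 4854, 5160.5 and 5240.1, the endosomal exchanger Clcn3 4488, 4366 and 4666 and the calcium-activated chloride channel Ano1 3976, 4392 and 4443. Cftr, another chloride channel of epithelia, was under background at 1.25, 1.72 and 7.76. So was Trpm8, a cation channel of human prostate epithelium, at 5.06, 8.67 and 3.7, with Car4 at 7.86, 10.1 and 9.27 and Aqp3 at 1.57, 1.87 and 2.97. These 4 were picked for their values. Trpv6, a calcium channel, and Slc26a4, an anion exchanger, were lower on A than on the others, at 762, 2357 and 1953 and 564, 2923 and 3266, and were also picked for their values.

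Keratins, desmosomes and cell junctions were above background in 37 of 42 genes (88.1%). Beside Krt18, Krt19 and Epcam, Ctnnb1, the beta-catenin of adherens junctions, had 7063, 6851 and 7396. The tight junction protein Cldn7 had 4451, 4345 and 4401 and the cadherin Cdh1 4708, 4964 and 5286, chosen after their values were seen. Krt20, a urothelial and intestinal keratin, was under background at 21.7, 9.1 and 11.7, as was Cldn2 at 9.54, 7.65 and 9.52, and both were picked for this. Of membrane serine proteases and their inhibitors, 10 of 15 were above background (66.7%). Spint2, an inhibitor of the Kunitz type, had 6838, 6844 and 7114. Tmprss2, an androgen-regulated protease, had 3878, 3818 and 4470.2, and its relatives St14 and Prss8 had 1760.1, 1983 and 1722 and 1474, 1642 and 1399. Klk10 and Klk11 were under background at 6.2, 3.1 and 1.29 and 2.59, 7.54 and 10.8.

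Immediate early and stress genes, which are known to be induced when tissue is dissociated, were high on all arrays. All 28 were above background and 15 were among the 1000 strongest genes. The heat shock protein Hspa1b had 7437, 7859.8 and 9585 and Hspb1 5751, 6807 and 7179. C was highest in 26 of 28 and B in the other 2, and no gene of the list was highest on A. Over all genes C was highest in 46.7%. After median scaling C was highest in 19, against 22.5% of all genes. The median of the list on the log2 scale was 11.51, 11.88 and 12.39.

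Cell cycle genes were above background in 28 of 33 (84.8%), but at low intensity, with a median of 127 and none among the 1000 strongest. Pcna, the sliding clamp of replication, had 2026, 2495 and 3093, and Ccnd1, cyclin D1, 2179, 2555 and 2824. Mcm4, of the replicative helicase, had 1615, 1544 and 1996, and Rrm2, of ribonucleotide reductase, 1089.8, 1183 and 1643. Plk1, a kinase of mitosis, was under background at 8.05, 8.88 and 21.1, while Kif11 was at 17.9, 25.4 and 19 and Aurkb at 19.5, 37 and 23. Mki67, the proliferation antigen, had 284, 57.5 and 169, chosen after its values were seen and lowest on B. With the fixed limit of 100 in place of the receptor background, 15 of 33 cell cycle genes stayed above it. Fewer of all genes passed this limit too, as given above with the ligands.

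Histocompatibility and interferon-induced genes were above background in 21 of 24 (87.5%). Most class I genes and partners named here were high on all arrays. B2m had 12214, 11748 and 12035, the peptide loader Tapbp 6370.4, 6469 and 6786 and H2-D1 4917, 5177 and 6405. The class I gene H2-Q10 did not follow and was above background on C alone, at 14, 20.1 and 4799. Genes of class II were high on C only. Cd74, the invariant chain, had 109.8, 280.3 and 8477, H2-Aa 80.9, 61.4 and 5648 and H2-Eb1 23.5, 33.9 and 3925. C lay over 1 log2 unit above both others in 14 of 24, against 7.43% over all genes. Myeloid markers, whose cells carry class II molecules, moved with them, and their part in the result was not tested.

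Markers of leukocytes divided the arrays most sharply. Of 20 macrophage and myeloid genes 7 were above background on A, 9 on B and 19 on C. The shares over all genes were 68.2, 71.8 and 73.4%. The summed intensity of the myeloid list was 1229, 1825 and 36278. Lyz2, a lysozyme, had 21.1, 34.5 and 5163, C1qb, a complement component of macrophages, 5.98, 8.6 and 3393, and Csf1r, the receptor of their growth factor, 26.9, 6.1 and 2213. Of 17 lymphocyte genes 2 were above background on A, 2 on B and 16 on C, with sums of 225, 197 and 5016. The T-cell receptor component Cd3e had 2.18, 1.11 and 887, and the B-cell component Cd79b 7.71, 10.2 and 307. Of 10 mast cell genes 2, 2 and 10 were above background. The chymase Cma1 had 7.16, 6.27 and 2505 and the tryptase Tpsb2 17.6, 12.7 and 2307. The sums of this list, 6117, 6123 and 13303, consisted on A and B mainly of Gata2, which is also on the list of transcription factors. C lay over 1 log2 unit above both others in 19 of 20 myeloid, 15 of 17 lymphocyte and 7 of 10 mast cell genes. Over all genes this was 7.43%. After median scaling the counts were 18, 14 and 7, against 5.35% over all genes. With C left out, 6 of 20, 2 of 17 and 2 of 10 genes of these lists were above background on both other arrays. The share over all genes was then 66.1%.

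Stromal and endothelial markers were above background in part on every array and differed in level. Of 21 fibroblast and matrix genes 18 were above background on all arrays (85.7%), and their sums were 14882, 23104 and 56784. Gsn, an actin-severing protein that epithelium also makes, had 6419, 6187 and 9531. Dcn, a matrix proteoglycan of fibroblasts, had 2069, 4853 and 8586 and Col3a1, a fibrillar collagen, 1036, 1028 and 3456. C was highest in 20 of 21, also after either rescaling, where the shares over all genes were 31.8 and 22.5%. In 18 endothelial genes 15 were above background on all arrays (83.3%), C was highest in 18 and the sums were 2516, 3294 and 9247. Cdh5, the endothelial cadherin, had 548, 515 and 1483 and Emcn 624, 575 and 713. Of 16 smooth muscle and pericyte genes 11 were above background throughout (68.8%). Acta2, smooth muscle actin, had 220.5, 554 and 2458, while Cnn1 was at 1, 3.42 and 37.9, under background on A and B. With the fixed limit of 100, 12 of the 21 fibroblast, 7 of the 18 endothelial and 5 of the 16 smooth muscle genes remained above it on all arrays. The count over all genes also fell at this limit, as given above with the ligands, so a fall alone does not set these lists apart.

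Basal epithelial markers were measured on every array and differed between arrays. Of 19 genes 18 were above background (94.7%). Krt5 had 349, 1578 and 2364 and its partner Krt14, named as the defining pair of basal keratins, 219, 866 and 3034. Trp63, the defining transcription factor of the basal layer, had 1824, 2959 and 4663, and Krt15 1557, 4874 and 5831. All 4 were lowest on A and highest on C. C was highest in 18 of the 19, against 46.7% over all genes. It was highest in 18 after quantile normalization, against 31.8%, and in 15 after median scaling, against 22.5%. The sums were 11621, 20947 and 32717. Basal cells share CD49f with the sort gate, and whether these intensities come from basal cells or from luminal cells was not tested.

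**Figure D4:**
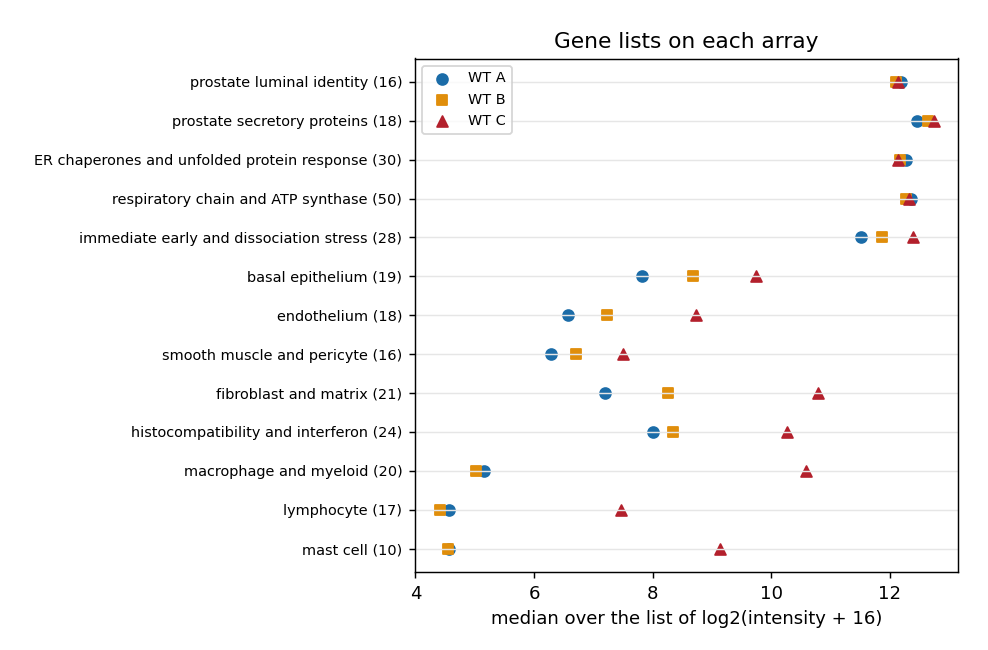
Median of log2(intensity + 16) over the measured genes of 13 lists (number in brackets) on each WT array. The luminal, secretory and respiratory lists coincide on the 3 arrays, whereas the fibroblast, myeloid, lymphocyte and mast cell lists lie further right on WT C.

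Of 12 neuroendocrine genes 5 were above background throughout (41.7%), and Chga, which marks these cells, was at 163, 9.25 and 28.8, above background on A and C. Ncam1 was the strongest at 2302, 2164 and 4034. Of 10 Schwann and glial genes 7 were above background (70%), led by Erbb3 at 2286, 2892 and 2836, a receptor that luminal epithelium expresses too. Of 7 erythroid genes 2 were. Hba-a2 had 2722, 3312 and 3722 whereas its near-identical copy Hba-a1 had 4.13, 2.39 and 2.64, so the pair cannot be read as a level of globin. Hbb-b2, a beta globin outside these 7 and chosen after its values were seen, was above background on C alone. It had 1.81, 1.42 and 4051, and its weaker probe set averaged 6.75.

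Lists of unrelated tissues had 5.88 to 29.4% of their genes above background on all arrays, a range that also holds the lymphocyte and mast cell lists. In 18 germ cell genes 13 were under background on all arrays and 3 were above it on all (16.7%). Prm1, a sperm protamine, had 14.4, 17 and 7.59, and Acrv1, an acrosomal protein, was an exception at 1148, 585 and 481. In 17 liver genes 10 were under background on all arrays, with Alb, serum albumin, at 8.94, 12.2 and 16, and only Hpx was above it on all, at 37, 48.3 and 33.8. Pancreas, retina, neuron and muscle lists had 25, 23.1, 29.4 and 27.8% of genes above background. Among those above were Cela1 at 634, 261 and 432, the retinal Guca1a at 891, 679 and 678 and Gad2, which makes the transmitter GABA, at 526, 465 and 97.3, lowest on C. The median intensity of germ cell genes was 9.83 and that of liver genes 13.2. These lists also give the rate at which genes of other tissues pass the background used here. At the 99th percentile of the receptor probe sets, 1 of 18 germ cell genes and 0 of 17 liver genes were above it on all arrays.

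The spread among arrays depended on level. The median SD over all genes was 0.23 on the scale of log2(intensity + 16), and 3525 genes (19.4%) had a range over 1. Genes were cut by mean level into 5 classes of equal size. That share was 3.49% in class 1, the lowest, 38.9% in class 2, 39.3% in class 3, 12.6% in class 4 and 2.64% in class 5. Leaving out an array moved the number with a range over 1 to 1848 without A, 2860 without B and 1405 without C. A range over 2 arrays cannot exceed that over all 3, so a fall from 3525 was fixed in advance. The 15 genes above background with the smallest range spanned a wide range of levels. Eif3h, a translation initiation factor, had 7912, 7885 and 7881, the nuclear pore protein Nup160 542, 544 and 542 and the respiratory factor Cox7a2l 7516, 7521 and 7548.

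A single array stood over 1 log2 unit above both others in 143 genes on A (0.786%), 90 on B (0.495%) and 1351 on C (7.43%). On the low side the counts were 818 on A (4.5%), 100 on B (0.55%) and 86 on C (0.473%). C was highest in 46.7% of genes, A in 27.5% and B in 25.7%. Rescaling changed that split. Quantile normalization gave 31.8% for C and 40.1% for A, and median scaling 22.5% for C and 55.5% for A. The scalings moved the median log2 value of C from 8.27 to 8.07 and 8.05 and that of A from 7.64 to 7.85 and 7.88. The number over 1 log2 unit above both others on C fell less, to 1041 and 973.

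**Figure D5:**
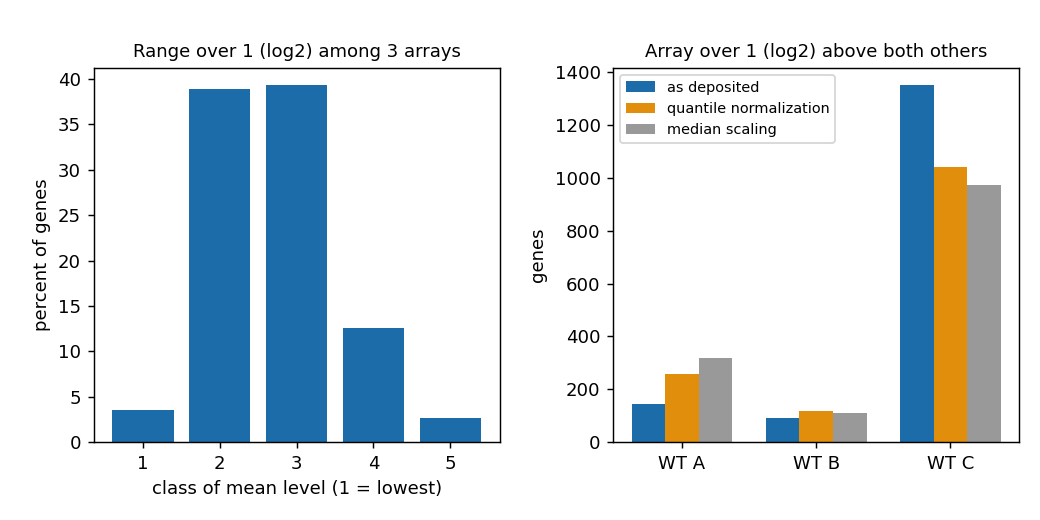
Left, percent of genes in each of 5 classes of mean level whose 3 WT arrays span over 1 log2 unit. Right, number of genes at which each array stands over 1 log2 unit above both others, for the intensities as deposited and after 2 rescalings; WT C has 1351, 1041 and 973 such genes.

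The widest ranges among genes above background on all arrays were mainly immune genes on C. Jchain, which joins immunoglobulin units, had 39.98, 24.7 and 6016, Lyz1 43.1, 66.5 and 5889.8 and the granule proteoglycan Srgn 103, 53.5 and 3496. The chemokines Ccl6 and Ccl7 had 44.5, 307 and 3261 and 26.4, 55.7 and 1535, and Cd83, a surface protein of activated leukocytes, 26.3, 38.3 and 1963. Another 3 of the 15 were high on A. Vnn1, a pantetheinase, had 5815, 161 and 264, Itln1, an intelectin, 5279, 204 and 153 and the lipase Pnliprp2 2243, 72.9 and 53.6. Elobl was high on C at 98.2, 331 and 4136. Genes outside this rule were chosen after their values were seen. Dusp13, a phosphatase, was above background on A alone at 4225, 19.5 and 14.3, and Sva, a seminal vesicle antigen, on B alone at 4.39, 933 and 1.45. On C alone the immunoglobulin chains Igk and Ighm were above background, at 6.49, 3.37 and 8718 and 3.72, 3.54 and 5771, with the macrophage product Retnla at 8.04, 7.04 and 4502. In the opposite direction, Gdpd3 had 5460.0, 5382 and 280.3, Cd59a, an inhibitor of complement, 5567, 4576 and 436 and Chn2 6799, 6203 and 986, each far lower on C. Sult5a1 and the channel Kcnk3 were low on A, at 159, 2010.0 and 2968 and 215, 2320.2 and 3588.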

How the data were processed

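Intensity values of 45037 probe sets on Affymetrix 430 2.0 arrays were taken as deposited by the authors, on a linear scale. How probes were summarised and arrays scaled is not given in the sources used here. RNA was extracted with Trizol and amplified with a NuGEN V2 kit, per the labels' protocols. Platform annotation gave 34945 probe sets 1 gene, 932 several and 9160 none. Names were updated by Entrez ID for 34741 with a GRCm38.p6 gene table. The probe set with the highest mean log2(intensity + 16) over the 7 arrays stood for a gene, which left 18193 genes. Background was the 95th percentile, per array, of 86 probe sets of 77 chemosensory receptor genes. Of the WT values, 693 (0.513%) were at or under 1. Precision is limited by having 3 arrays.

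Of 47 gene lists, 1167 members were measured. The members and lists were chosen with earlier results of these data known. Named in the text are the 30 genes of highest mean, the luminal and gate genes, up to 5 of each list by mean (15 transcription factors, 8 each of receptors, ligands and transporters), members of lists of up to 40 genes that were not above background, and the 15 largest and 15 smallest ranges among genes above background. Predicted and clone-named genes outside the lists were left out, and genes picked for their values are said to be so. Values were described with no test, using Python 3.11.15, numpy 2.4.6 and pandas 2.3.3. Counting and ranking were tested on simulated data. Alternatives covered scaling, probe set, pseudocount, background and each array left out. Promoter sequences came from RefSeq.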

Additional observations from a re-analysis of the deposited data

Results flagged for a closer look

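Of 9160 probe sets to which the annotation used here lists no gene, 2891 were above the receptor background on all 3 WT arrays (31.6%). They were set aside because these probe sets enter no result by gene, yet carry signal over the level of the receptor probe sets. The highest mean among them was 13853, 364 had a mean over 1000, and the median was 16.1. No outlier test was applied to single values, since groups of 3 arrays are too small for it.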

How the results depend on the processing

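No paired analysis was possible because the values come from no test and no group was compared with another. The number of genes above background on all arrays, 11793, ranged from 9694 to 12500 over its 10 alternatives. The number under background on all rose from 4031 to 6742 with a fixed intensity of 100 as the limit. The median SD of 0.23 was 0.15 with a pseudocount of 64. The 3525 genes with a range over 1 became 6188 with a pseudocount of 1, 2144 with 64 and 2124 among genes above background. With an array left out they became 1405 to 2860, where the range over 2 arrays can only be equal or smaller. The 1584 genes with 1 array over 1 log2 unit above both others became 2506 and 958 with these pseudocounts and 761 among genes above background. With an array left out they became 1405 to 2860, where the higher of 2 arrays counts. When all probe sets of a gene were averaged, the median log2 level of the named genes went from 13.43 to 12.91, and 21 of the top 30 genes stayed. Of 470 further values for the lists 31 moved, as did 25 of 495 for named genes. With 3 arrays, intensities near the highest values and under background have little order.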
